A study of Mus musculus with 6 samples.

Results

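The genes of the integrated stress response and the unfolded protein response were examined in double positive (DP) thymocytes, the stage of T cell development at which CD4 and CD8 are on the surface together. The members were 10 gene symbols, chosen by name, of the 23183 symbols that the expression files list: *Atf4*, *Atf5*, *Atf6*, *Ddit3*, *Xbp1*, *Asns*, *Trib3*, *Chac1*, *Sesn2* and *Herpud1*. All 10 symbols were found in every library. Sorted DP thymocytes came from C57BL/6 mice of 6 weeks of age, 3 libraries from *Nsrp1* f/f mice (WT) and 3 from *Nsrp1* f/f CD4Cre mice (NSrp70-cKO), whose *Nsrp1* gene encodes the splicing factor NSrp70. Both groups carry the loxP-flanked allele, and only the cKO group carries the Cre transgene, which CD4 regulatory sequences drive, so that by the study's account deletion begins in late double negative cells. The comparison asks how NSrp70-cKO DP thymocytes differ from WT in the RNA of these genes. The sources used here do not say whether the libraries of a group came from separate animals, so the p-values measure the spread between these libraries only.

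Both responses are switched on when protein synthesis or folding is disturbed. In the integrated stress response, 4 kinases, among them the endoplasmic reticulum (ER) sensor PERK and the amino acid sensor GCN2, phosphorylate the translation factor eIF2, which lowers protein synthesis as a whole while the mRNA of the transcription factor ATF4 is translated more. In the unfolded protein response, PERK acts beside the ER sensors IRE1, which splices *Xbp1* mRNA into its active form, and ATF6, which is cut in the Golgi and moves to the nucleus. DP thymocytes are small cells, most of which die in the thymus without being selected.

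The level of each gene is its FPKM, the fragments mapped to it divided by transcript length and by library depth, so that levels of different genes can be compared. FPKM sums over the isoforms of a gene, so spliced and unspliced *Xbp1* were not told apart, and neither the translation of ATF4 nor the cutting of ATF6 is visible in it. From the steps of 1 fragment at 2521 single-transcript genes, depth was estimated as 20.7 to 20.8 M fragments in the WT libraries and as 13.1, 20.5 and 17.3 M in cKO 1, 2 and 3 (M, mega). The 3 WT libraries differed from each other by little more than counting noise (chi-square per gene 1.46 to 1.59, where counting noise alone gives about 1), whereas pairs of cKO libraries differed by 33.1 to 75.4. The members, and the called genes of each pathway list, are therefore also given with WT taken as 1 sample. The cKO 2 library stood nearest to the WT mean of the 3 cKO libraries in 51.7% of the 10326 tested genes. *Nsrp1*, listed under its older symbol *Ccdc55*, was at an FPKM of 20.2, 20.7 and 21.1 in WT and 17.7, 15.8 and 15 in cKO. The cKO mean was 0.782 of the WT mean, so most RNA counted for the targeted gene was still present, and a gene-level FPKM does not show which exons it held. *Xist*, the RNA of the inactive X chromosome, was at 69.8 to 72.0 in WT against 4.07 to 5.44 in cKO, while 4 genes of chromosome Y were listed at 0 in every WT library and expressed in every cKO library, so sex and genotype cannot be told apart. The 9 DP markers summed to an FPKM of 5442 to 5519 in WT and 7184 to 9420 in cKO. Of these, 6 were higher in every cKO library than in any WT library and 2 were lower. Of 12 markers of mature single positive (SP) thymocytes, 9 were lower in every cKO library than in any WT library and 1 was higher, with summed levels of 163.5 to 166.8 in WT and 120.2 to 146.2 in cKO, and 5 erythroid genes summed to 0.603 to 1.07 in WT and 3.50 to 10.9 in cKO. The 9 myeloid markers summed to 23.6 to 24.6 in WT and 17.2 to 20.9 in cKO, but they split. Every cKO library was above every WT library for 2 of them, such as *Tyrobp* (means 2.02 in WT and 3.54 in cKO). The reverse held for 2, such as *Cd74* (10.5 and 5.68). Stromal markers, with *Krt5*, *Foxn1* and *Col3a1* listed at 0, summed to 47.4 to 49.0 and 53.4 to 57.4. Most of this came from the endothelial gene *Pecam1* (means 44.4 and 52.4), while the epithelial gene *Epcam* was at 3.54 and 2.65. The part of these differences in the results was not tested. In sorted cells measured in bulk, fewer cells of a type and less RNA per cell cannot be told apart.

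The promoters of the ATF4 targets are shown because ATF4 pairs with C/EBP proteins on a short element, whose core was searched as TGATGNAA on both strands of the RefSeq windows on GRCm38.p6, from 250 bases before to 50 bases after each annotated start. *Atf6* had no window in the table, *Atf5* had 2, and 9 of the 10 members were matched. The core was found in *Asns*, *Trib3*, *Chac1* and *Herpud1*, and in 3.97% of all 32851 windows. Capitals mark the match, read 5′ to 3′ on the strand of the gene.
*Asns*, chr6:7693210-7693288, minus strand: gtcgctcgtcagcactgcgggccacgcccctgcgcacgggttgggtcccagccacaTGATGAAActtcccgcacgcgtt
*Trib3*, chr2:152344028-152344057, minus strand: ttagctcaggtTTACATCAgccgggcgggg
*Chac1*, chr2:119350993-119351112, plus strand: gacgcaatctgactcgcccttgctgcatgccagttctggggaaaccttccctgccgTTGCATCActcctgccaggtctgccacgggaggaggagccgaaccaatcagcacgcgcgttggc
*Herpud1*, chr8:94386261-94386428, plus strand: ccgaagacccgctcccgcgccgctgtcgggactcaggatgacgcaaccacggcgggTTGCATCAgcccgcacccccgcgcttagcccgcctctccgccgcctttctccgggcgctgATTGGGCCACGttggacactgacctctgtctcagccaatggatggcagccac
The match lay 23 to 16 bases before the start in *Asns*, 193 to 186 before it in *Chac1* and 112 to 105 before it in *Herpud1*, and at bases 15 to 22 of the transcript in *Trib3*. Both TTGCATCA and TTACATCA are the core read on the other strand. *Herpud1* also held ATTGGGCCACG, 52 to 42 bases before its start, a match to the ER stress response element II, which ATF6 and XBP1 bind. This element was searched as ATTGG, 1 base of any kind and CCACG, was added after the sequences had been seen, and stood in 0.0365% of the windows. The first ER stress response element (CCAAT, 9 bases, CCACG) and the core of the unfolded protein response element (TGACGTGG), found in 0.119% and 0.676% of the windows, had no match in any member. The windows of *Sesn2*, *Atf5*, *Ddit3*, *Xbp1* and *Atf4* held none of these letters.

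Across the WT libraries the members covered a wide span of levels. *Atf4* was the most abundant, with a mean FPKM of 120.1 (percentile 97.3 of all symbols), followed by *Xbp1* at 57.3, *Ddit3* at 36.5, *Herpud1* at 21.6 and *Atf5* at 8.44. *Sesn2* at 2.17 and *Atf6* at 2.11 came next, and theirs were the only neighbouring ranges that overlapped in WT. *Trib3* at 0.737 and *Asns* at 0.326 lay under an FPKM of 1, and *Chac1* was listed at 0 in all 6 libraries. In cKO the order was the same except that *Atf6*, at 2.2 ± 0.0337 (SD, n = 3), lay above *Sesn2*, at 1.09 ± 0.219 (SD, n = 3), with ranges that did not overlap.

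Changes were tested with limma on log2(FPKM + 1) over the 10326 genes that reached an FPKM of 1 in 3 or more libraries. The changes given are log2 folds, cKO minus WT, on this scale, on which low genes seem to change less than they do, and adjusted p stands for the Benjamini-Hochberg value over all genes tested. Of the 10 members, 7 were tested, and *Asns*, *Trib3* and *Chac1* were under the filter. At an adjusted p under 0.05, 2 of the 7 were called, 1 higher (*Herpud1*) and 1 lower (*Sesn2*). Over all tested genes 65.5% were called, 35.8% higher and 29.8% lower, the background against which these 2 of 7 are to be read. For 3 of the 7 (*Xbp1*, *Herpud1* and *Sesn2*) the groups did not overlap, against 72.5% of all tested genes. When WT was taken as 1 sample, 0 of the 7 were called by limma (1, *Sesn2*, had an unadjusted p under 0.05), against 15.9% of all tested genes.

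**Figure D1:**
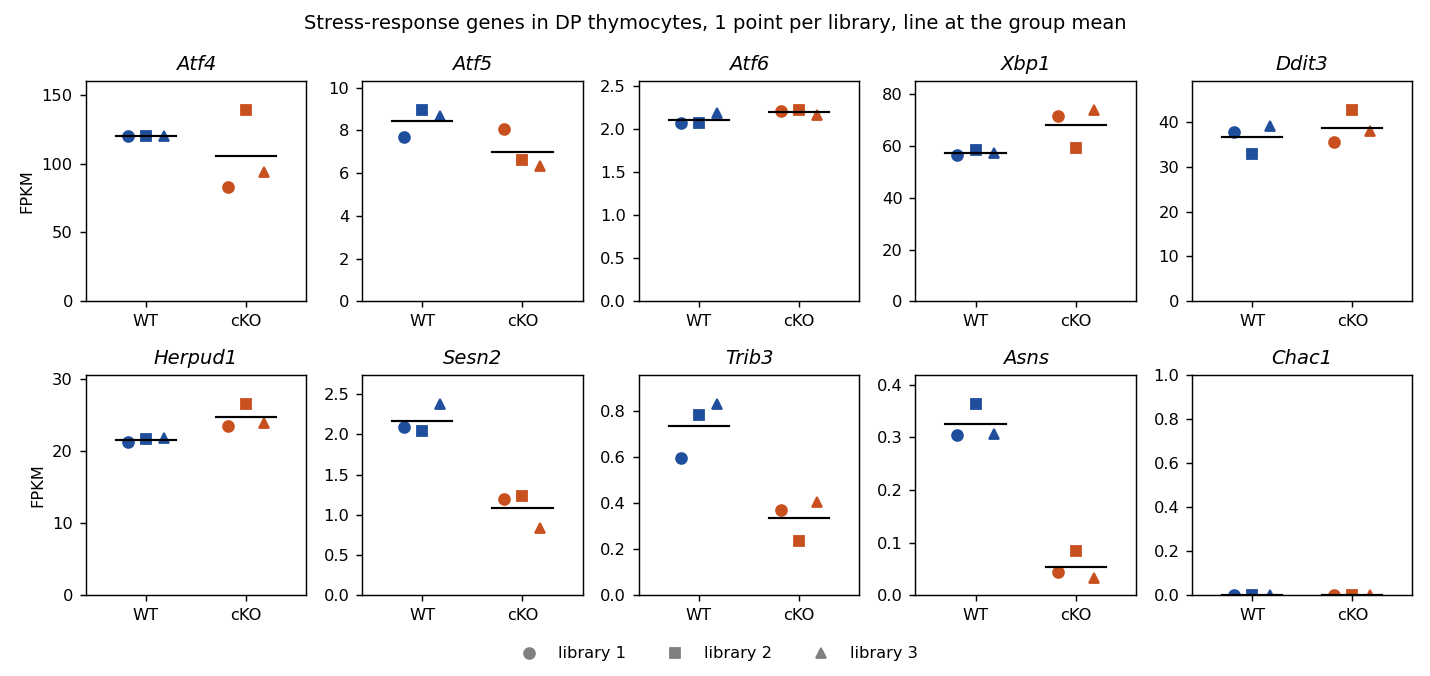
FPKM (vertical axes, linear from 0, a different range in each panel) of the 10 stress-response genes in the 3 WT and the 3 cKO libraries, with 1 point per library and a line at the group mean. The cKO points of *Sesn2*, *Trib3* and *Asns* all lie below the WT points, those of *Xbp1* and *Herpud1* lie above them, and *Atf4* spreads from 83.2 to 139.1 in cKO against 119.8 to 120.4 in WT.

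*Atf4* (chr15:80255184-80257541, plus strand of GRCm38) encodes the central transcription factor of the integrated stress response. Its FPKM was 120.1, 119.8 and 120.4 in WT and 83.2, 139.1 and 94.2 in cKO. The WT values were nearly equal, while cKO 1 and cKO 3 lay below all of them and cKO 2 above all of them, so the groups overlapped. That is a change of -0.22 (95% interval -0.63 to 0.19, SE 0.17, limma adjusted p = 0.291). Without cKO 2 it was -0.43 (limma adjusted p = 0.000929). With all 6 libraries the change was also called lower under quantile normalization (-0.56, adjusted p = 0.0356). It was called lower with the same FPKM total too (-0.78, adjusted p = 0.0148), as were 59.9% of all tested genes. It was not called without cKO 1 (-0.067, adjusted p = 0.73) or without cKO 3 (-0.16, adjusted p = 0.536). After removal of trends with GC content and transcript length the change was -0.091 (adjusted p = 0.699). *Atf4* mRNA carries upstream reading frames through which its translation is set, a step not measured here. The 3 tested genes whose pattern over the 6 libraries was most like that of *Atf4* were *Slc15a2* (Pearson r 0.997), *Coa3* (0.997) and *Tfrc* (0.996), each highest in cKO 2. These r values are a description over 6 libraries that share the scaling and the cKO 2 library.

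*Atf5* (chr7:44812256-44816658, minus strand) encodes a related factor that is also translated under stress and controls mitochondrial stress genes. Its FPKM was 7.69, 8.96 and 8.67 in WT and 8.08, 6.60 and 6.31 in cKO. Only cKO 1 lay within the WT range. The change was -0.24 (95% interval -0.49 to 0.0043, SE 0.11, limma adjusted p = 0.0762), and without cKO 1 it was -0.34 (adjusted p = 0.0132). It was not called without cKO 2 (-0.203, adjusted p = 0.144) or without cKO 3 (-0.185, adjusted p = 0.21). With the same FPKM total it was called lower (-0.74, adjusted p = 0.00151), as were 59.9% of all tested genes. After removal of trends with GC content and transcript length it was 0.046 (adjusted p = 0.67). *Atf5* overlaps *Nup62* and *Il4i1* on the other strand. The libraries were made with a strand-keeping kit, but the strand setting of the authors' counting is not given in the sources used here, so reads of such partners could be counted together.

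*Ddit3* (chr10:127290774-127296288, plus strand) encodes CHOP, the factor linked to cell death after prolonged ER stress and a target of ATF4. Its FPKM was 37.7, 32.8 and 39.0 in WT and 35.5, 42.7 and 37.9 in cKO, with overlapping groups. This was a change of 0.080 (95% interval -0.15 to 0.31, SE 0.096, limma adjusted p = 0.484). After removal of trends with GC content and transcript length it was -0.65 (adjusted p = 0.00281), and under quantile normalization -0.049. *Ddit3* overlaps *Mars* and *Gm4189* on the other strand and a second short GENCODE gene of the same name. The genes most like *Ddit3* over the 6 libraries were *Trmt10b* (r 0.978), *Fam173b* (0.953) and *Pcgf5* (0.935), all lowest in WT 2 and highest in cKO 2.

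*Atf6* (chr1:170704674-170867771, minus strand), the ER membrane sensor that becomes a transcription factor, was not called. Its FPKM was 2.07, 2.08 and 2.18 in WT and 2.21, 2.23 and 2.16 in cKO. The ranges touched only through WT 3 and cKO 3. These values gave a change of 0.041 (95% interval -0.13 to 0.22, SE 0.074, limma adjusted p = 0.641). Under quantile normalization it was 0.25 and called higher (adjusted p = 0.0208), and with the same FPKM total -0.34 and called lower (adjusted p = 0.0146).

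*Xbp1* (chr11:5520659-5525893, plus strand) encodes the factor activated by IRE1, which raises ER chaperone and secretory genes. Its FPKM was 56.4, 58.5 and 57.1 in WT and 71.5, 59.4 and 74.0 in cKO. Every cKO library was above the WT range, cKO 2 only just. Limma gave a change of 0.24 (95% interval 0.015 to 0.47, SE 0.096, adjusted p = 0.0590), and without cKO 2 it was 0.35 (adjusted p = 0.000505). Under quantile normalization the change was -0.001, and with every library scaled to the same FPKM total it was -0.31. *Xbp1* is high in plasma cells. The 8 B and plasma cell markers found summed to an FPKM of 25.6 to 26.9 in WT and 28.4 to 41.0 in cKO, mostly from *Cd79b*. Of these markers, 2 were higher in every cKO library than in any WT library. Another 2 were lower, among them *Jchain* (means 2.06 in WT and 0.969 in cKO). The part of these markers in the *Xbp1* difference was not tested.

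*Herpud1* (chr8:94386438-94395377, plus strand) encodes an ER membrane protein of ER-associated degradation that responds to both ATF6 and ATF4, and its promoter held both elements printed above. Its FPKM was 21.3, 21.7 and 21.8 in WT and 23.4, 26.6 and 23.9 in cKO, so every cKO library lay above every WT library. The values give a change of 0.18 (95% interval 0.024 to 0.34, SE 0.066, limma adjusted p = 0.0453). The gene was called higher in 6 of 16 settings (those reported here and 15 alternatives). It was not called when any 1 WT library was left out (adjusted p 0.118 to 0.151) or when cKO 3 was (0.0518), and with the same FPKM total it was called lower (-0.36, adjusted p = 0.0267), as were 59.9% of all tested genes.

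*Sesn2* (chr4:132492032-132510501, minus strand) encodes sestrin 2, a leucine-binding inhibitor of mTORC1 and a target of ATF4 and of p53. Its FPKM was 2.10, 2.04 and 2.38 in WT and 1.199, 1.23 and 0.837 in cKO. Every cKO library was below the WT range, and the cKO mean was 0.501 of the WT mean. The difference was -0.61 (95% interval -0.86 to -0.35, SE 0.11, limma adjusted p = 0.00237). It was called lower in 14 of 16 settings. It was not called with WT taken as 1 sample (adjusted p = 0.0844) or after removal of trends with GC content and transcript length, where the change was -0.078 (adjusted p = 0.513).

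**Figure D2:**
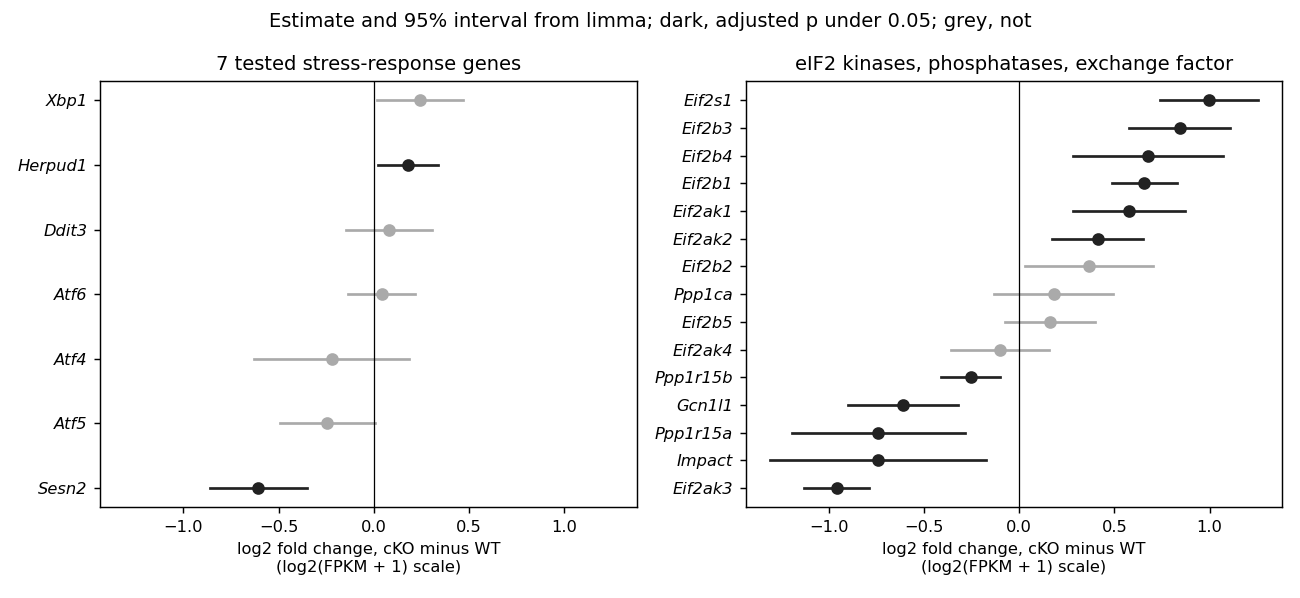
Log2 fold changes (horizontal axis, cKO minus WT, log2(FPKM + 1) scale) with 95% intervals from limma for the 7 tested stress-response genes (left) and the 15 genes of the eIF2 list (right), dark where the adjusted p was under 0.05. On the left only *Sesn2* (-0.61) and *Herpud1* (0.18) are dark, and with the same FPKM total *Herpud1*, *Xbp1*, *Ddit3* and *Atf6* turn negative. On the right *Eif2s1* lies at 1.00 and *Eif2ak3* at -0.96.

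*Asns* (chr6:7675169-7693254, minus strand), which encodes asparagine synthetase and is a standard ATF4 target, was at an FPKM of 0.305, 0.364 and 0.307 in WT and 0.0441, 0.0842 and 0.0334 in cKO. At the estimated depths these values correspond to 11, 13 and 11 fragments in WT and 1, 3 and 1 in cKO, by a transcript length chosen so that the values fell on whole fragments. Every cKO library lay below every WT library. The depth-scaled ratio of cKO to WT, from 5 and 35 fragments in sum, was 0.174, with an exact 95% interval of 0.0533 to 0.446 that covers counting error only.

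*Trib3* (chr2:152337422-152344032, minus strand) encodes a pseudokinase that ATF4 and CHOP induce and that feeds back on them. Its FPKM was 0.594, 0.783 and 0.833 in WT and 0.370, 0.235 and 0.404 in cKO. Every cKO library again lay below every WT library. About 84 fragments in sum stood against 31 (the estimates lay up to 0.43 from whole numbers, so they are approximate), a ratio of 0.450 with an interval of 0.288 to 0.687 for counting error. *Chac1* (chr2:119351229-119354381, plus strand), which encodes a glutathione-degrading enzyme induced by ATF4 and CHOP, was listed at 0 throughout. In a fit with no filter on low values, *Asns* (log2 change -0.33, adjusted p = 0.000854) and *Trib3* (-0.38, adjusted p = 0.00924) were called lower, as were 22.0% of all genes in that fit. The 3 members with cKO values all below the WT values, *Sesn2*, *Trib3* and *Asns*, all lay at or under an FPKM of 2.38 in every library.

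**Figure D3:**
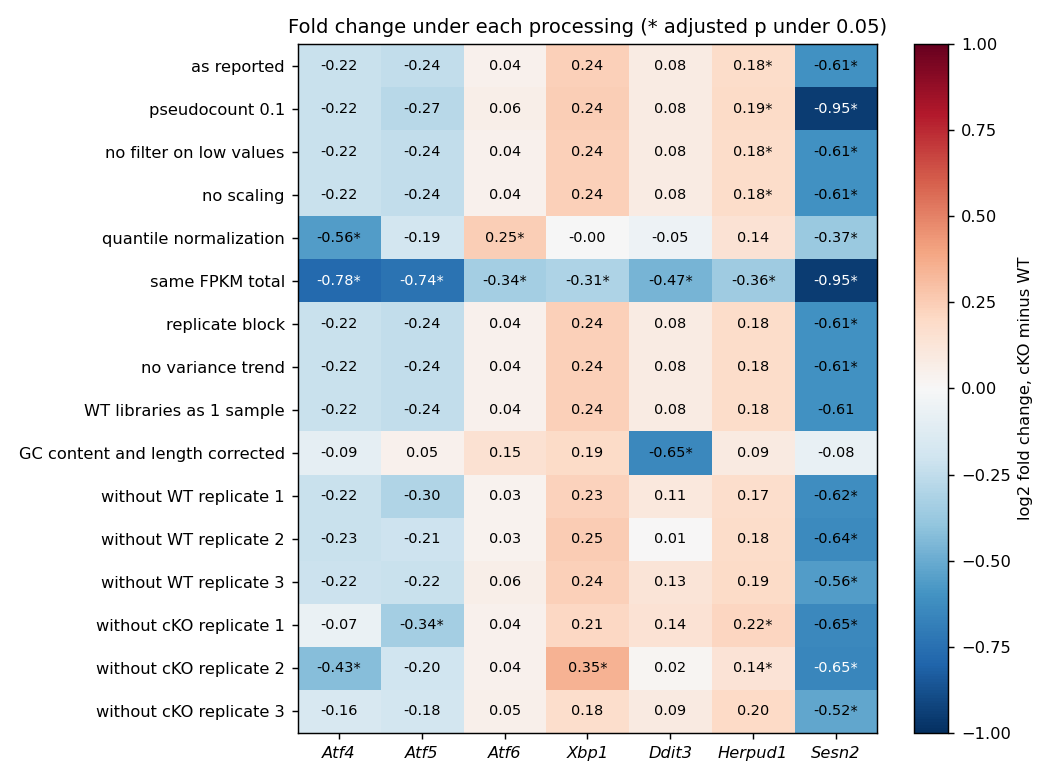
Log2 fold changes (colour and printed value, cKO minus WT) of the 7 tested stress-response genes (columns) under the reported processing and 15 alternatives, with a star where the adjusted p was under 0.05. *Sesn2* is negative in every setting and starred in 14 of 16, whereas *Atf4*, *Atf5*, *Xbp1*, *Ddit3*, *Herpud1* and *Atf6* change their call or direction between settings. With the same FPKM total all 7 are negative, where the median of all tested genes is -0.45.

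Upstream of ATF4 stand the kinases, the phosphatase and the exchange factor of eIF2. Of the 15 genes of this list, all tested, 6 were called higher, 5 lower and 4 were not called, with a median log2 fold change of 0.18 against 0.039 for all tested genes. Over all tested genes 35.8% were called higher and 29.8% lower. The counts of this list and of those that follow are to be read beside these shares. Counts with WT taken as 1 sample are to be read beside the share of all tested genes given above for that fit. The share of all genes with an unadjusted p under 0.05 in that fit was not computed. List counts at that threshold are therefore a description only. *Eif2ak3*, which encodes PERK, was at an FPKM of 36.3, 37.1 and 36.5 in WT and 17.3, 20.2 and 17.7 in cKO. The cKO level was 0.503 of the WT level, a change of -0.96 (SE 0.072, limma adjusted p = 0.000139), and it was called lower in all 16 settings. *Eif2s1*, the eIF2 subunit that these kinases phosphorylate, was at 29.4, 29.7 and 30.3 in WT and 59.8, 52.4 and 70.5 in cKO, a change of 1.00 (SE 0.11, limma adjusted p = 0.000384), and was called higher in all 16 settings. RNA for the ER kinase was thus lower and RNA for its substrate higher in every cKO library.

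The other kinases were not called lower. *Eif2ak1* (the heme-regulated kinase HRI) changed by 0.58 (limma adjusted p = 0.00557) and *Eif2ak2* (the double-stranded RNA sensor PKR) by 0.41 (adjusted p = 0.00942), while *Eif2ak4* (GCN2) was at -0.10 (adjusted p = 0.447). With the same FPKM total *Eif2ak1* was at 0.035 (limma adjusted p = 0.742) and *Eif2ak2* at -0.064, neither of them called. After removal of trends with GC content and length *Eif2ak2* was not called (0.29, adjusted p = 0.0649). *Gcn1l1*, the older symbol of the GCN2 activator *Gcn1*, fell by 0.61 on the log2 scale and *Impact*, which encodes an inhibitor of that activation, fell by 0.74, cKO 2 being close to WT for *Impact* at 8.99 against 9.54 to 10.1. After removal of trends with GC content and length *Gcn1l1* was at 0.17. Among the exchange factor subunits, which recharge eIF2 with GTP, *Eif2b3* (0.84), *Eif2b4* (0.67) and *Eif2b1* (0.66) were called higher, and *Eif2b2* (0.37) and *Eif2b5* (0.16) were not called. With the same FPKM total *Eif2b3* was still called higher (0.35, limma adjusted p = 0.0236). *Eif2b4* (0.13, adjusted p = 0.375) and *Eif2b1* (0.11, adjusted p = 0.198) were then not called. *Ppp1r15a* (GADD34), the stress-induced subunit that directs dephosphorylation of eIF2, was at 60.9, 59.4 and 59.5 in WT and 32.3, 50.02 and 27.7 in cKO, a change of -0.74 (limma adjusted p = 0.0121). Its constitutive relative *Ppp1r15b* was at -0.25 (adjusted p = 0.0113), and the catalytic subunit *Ppp1ca* at 0.18 was not called. Neither phosphatase regulator was called once trends with GC content and length were removed, *Ppp1r15a* being at -0.44 (adjusted p = 0.0845) and *Ppp1r15b* at -0.13 (adjusted p = 0.128). When WT was taken as 1 sample, *Eif2ak3* was still called lower and *Eif2s1*, *Eif2b1* and *Eif2b3* higher (limma adjusted p 0.0309 to 0.0484), and the other 11 genes of the list were not called. The remaining eIF2 subunits were added after values were seen: *Eif2s2* changed by 0.89 (limma adjusted p = 0.000979) and *Eif2s3x* by 0.25 (adjusted p = 0.0389), and *Eif2s3y*, on chromosome Y, was listed at 0 in WT and at 33.5, 43.8 and 31.3 in cKO. The last of these marks the difference in sex between the libraries.

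Beside the low targets among the members, 29 other genes that ATF4 is known to act on were listed, of which 16 were tested. They split into 6 called higher, 5 lower and 5 not called, beside 35.8% higher and 29.8% lower of all tested genes. Their median log2 fold change was -0.08. The 3 highest were *Psat1* and *Phgdh*, enzymes of serine synthesis, and *Mthfd2*, an enzyme of mitochondrial folate metabolism. *Psat1* was at an FPKM of 18.9, 18.8 and 19.4 in WT and 44.3, 35.8 and 50.3 in cKO, a change of 1.14 (SE 0.12, limma adjusted p = 0.000356). *Phgdh* changed by 0.96 (limma adjusted p = 0.00479) and *Mthfd2* by 0.87 (adjusted p = 0.000171). *Shmt2*, another mitochondrial folate enzyme, named after its values were seen, was at -0.31 and not called (adjusted p = 0.0558). In the other direction, *Ddit4* (REDD1, an inhibitor of mTORC1, as *Sesn2* is) was at 82.1, 83.0 and 83.2 in WT and 35.1, 58.0 and 36.6 in cKO, a change of -0.96 (limma adjusted p = 0.00277). *Cebpb*, which encodes a C/EBP partner of ATF4, was at -0.93 (adjusted p = 0.00319), and *Pck2*, a mitochondrial gluconeogenic enzyme, was at an FPKM of 0.164, 0.268 and 0.496 in cKO against 1.04 to 1.2 in WT. *Pck2* passed the filter only through its WT values, so its call is given as a description. When WT was taken as 1 sample, *Psat1* (adjusted p = 0.0330) and *Mthfd2* (adjusted p = 0.0325) were the only 2 of the 16 called by limma.

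In the IRE1 and ATF6 arms, 13 regulators were listed and tested, of which 6 were called higher, 6 lower and 1 was not called, with a median of -0.16. The shares over all tested genes were 35.8% higher and 29.8% lower. *Ern1*, which encodes IRE1 alpha, was at 2.15, 2.03 and 2.14 in WT and 1.43, 1.04 and 1.44 in cKO, a change of -0.43 (SE 0.10, limma adjusted p = 0.00724). *Atf6b*, the paralog of *Atf6*, fell by 0.56 (adjusted p = 0.000494), and *Zbtb17* was at -0.42 (adjusted p = 0.00109). With trends in GC content and length removed none of these 3 was called, *Ern1* being at -0.21 (limma adjusted p = 0.107), *Atf6b* at -0.11 (adjusted p = 0.310) and *Zbtb17* at 0.11. *Ern1* was not called under quantile normalization either (-0.21, adjusted p = 0.138). The highest were *Rtcb* (0.78, adjusted p = 0.00169), which encodes the ligase that joins the *Xbp1* exons after IRE1 has cut them, and *Nfyb* (0.62, adjusted p = 0.000688) and *Nfyc* (0.51, adjusted p = 0.000620), subunits of the CCAAT-binding factor that acts with ATF6, *Nfyc* being at -0.045 with the same FPKM total. Limma called 0 of these 13 with WT as 1 sample (7 had an unadjusted p under 0.05).

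The ER chaperones and folding enzymes, targets of ATF6 and XBP1, had 12 genes called higher, 2 lower and 8 not called of 22 tested (23 listed), with a median of 0.35, against 8 and 3 by quantile normalization and 4 and 9 with the same FPKM total. Of all tested genes 35.8% were called higher and 29.8% lower, and with the same FPKM total 59.9% were called lower. By quantile normalization 3475 of all 10326 were called higher and 3041 lower. *Hspa5* (BiP), the main ER chaperone and the usual readout of the unfolded protein response, was at 121.8 ± 1.26 (SD, n = 3) in WT and 144.9, 168.0 and 167.5 in cKO. Its change was 0.39 (SE 0.079, limma adjusted p = 0.00424), 0.0022 under quantile normalization and -0.17 with the same FPKM total. *Ppib* (1.02, adjusted p = 0.000421) and *Fkbp2* (0.86, adjusted p = 0.00121), both prolyl isomerases, and *Sil1* (0.97, adjusted p = 0.00128), the nucleotide exchange factor of BiP, rose most, each called higher in all 16 settings. *Hyou1* (-0.51, adjusted p = 0.00969), which encodes another ER chaperone, and *Dnajb9* (-0.57, adjusted p = 0.0269), an IRE1-repressing cochaperone, fell, with *Dnajb9* at 27.9 in cKO 2 against 16.6 and 17.0 in the other cKO libraries and 29.6 to 30.7 in WT. *Hyou1* was not called after removal of trends with GC content and length (-0.28, adjusted p = 0.120). When WT was taken as 1 sample 4 of the 22 were called, all higher, among them *Ppib*, *Sil1* and *Fkbp2* but not *Hspa5* (limma adjusted p = 0.189).

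ER-associated degradation, the route in which *Herpud1* acts, had 3 genes called higher, 7 lower and 8 not called of 18 tested (19 listed), with a median of -0.02. These calls stand beside 35.8% higher and 29.8% lower over all tested genes. *Syvn1* (HRD1), the ubiquitin ligase that HERPUD1 binds, was at 23.7, 21.4 and 20.8 in WT and 10.04, 13.4 and 9.54 in cKO, a change of -0.95 (SE 0.12, limma adjusted p = 0.000721). It was called lower in all 16 settings, with *Herpud1* itself on the other side of 0 in the reported fit. *Edem1* (-0.47) and *Herpud2* (-0.46, adjusted p = 0.00264), the paralog of *Herpud1*, also fell. The extraction factors *Vcp* (0.50) and *Ufd1l* (0.44) and the conjugating enzyme *Ube2j1* (0.22) rose, although all 3 were below 0 with the same FPKM total. Taking WT as 1 sample left *Syvn1* (limma adjusted p = 0.0403) as the only 1 of the 18 called.

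The ER translocon and signal peptidase, which bring new proteins into the ER, had 13 genes called higher, 1 lower and 4 not called of 18 tested, with a median of 0.48, against 7 and 1 by quantile normalization and 1 and 5 with the same FPKM total. The background for this list and for the union below was 35.8% higher and 29.8% lower of all tested genes. With the same FPKM total 59.9% of all tested genes were called lower. By quantile normalization 3475 of all 10326 were called higher and 3041 lower. *Ssr2* (0.91), *Sec62* (0.89) and *Sec61g* (0.85) were the highest, and *Sec63* (-0.30) was the one called lower. Limma called 0 of the 18 with WT as 1 sample (8 had an unadjusted p under 0.05). Over the union of the lists, 122 genes of which 107 were tested, 47 were called higher, 28 lower and 32 not called, with a median of 0.113. With the same FPKM total these counts were 11 higher and 59 lower, and 9 and 3 when WT was taken as a single sample.

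**Figure D4:**
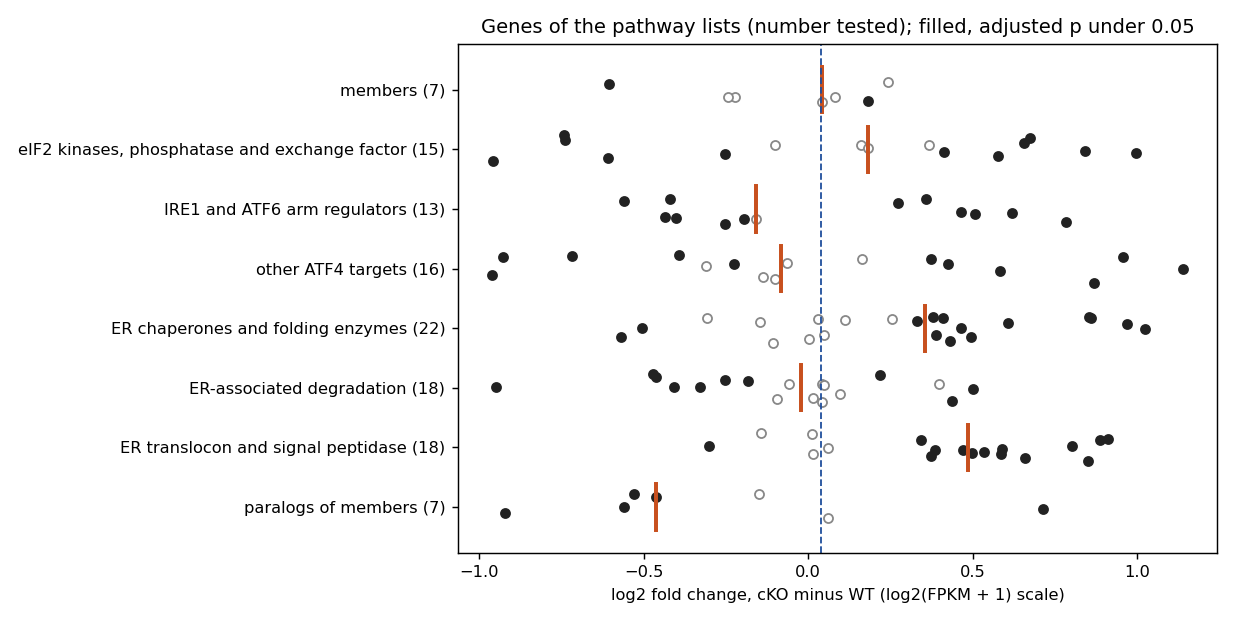
Log2 fold change (horizontal axis, cKO minus WT, log2(FPKM + 1) scale) of every tested gene, 1 point per gene, for the stress-response members and each pathway list, filled where the adjusted p was under 0.05, with a bar at the median of each list and a dashed line at 0.039, the median of all tested genes. The ER translocon (median 0.48) and chaperone (median 0.35) lists lie to the right and the paralogs (median -0.46) to the left, and with the same FPKM total, where the median of all genes is -0.45, all list medians are below 0.

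The paralogs of the members were listed because some of them serve the same function without being stress-induced. Of 8 paralogs, 7 were tested, 1 was called higher and 4 lower, with a median of -0.46. Among all tested genes 35.8% were called higher and 29.8% lower. *Trib2* was at an FPKM of 35.6, 36.2 and 35.5 in WT and 16.5, 19.9 and 19.0 in cKO, a change of -0.92 (SE 0.077, limma adjusted p = 0.000169), called lower in all 16 settings, and the only 1 of the 7 called when WT was taken as 1 sample. *Trib1* was at -0.53 (limma adjusted p = 0.00272), but at -0.21 (adjusted p = 0.110) after removal of trends with GC content and length. Of the sestrins, *Sesn1* (-0.15, adjusted p = 0.245) and *Sesn3* (0.061, adjusted p = 0.455) were not called while *Sesn2* was. *Chac2*, the constitutive relative of *Chac1*, was at 1.51, 2.06 and 1.96 in WT and 4.90, 3.24 and 3.02 in cKO (log2 change 0.71, adjusted p = 0.00711), and at -0.038 after removal of trends with GC content and length. *Atf3*, a stress-induced factor, stood under the filter at 0.163 to 0.244 in WT and at 0, 0.136 and 0 in cKO.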

How the data were processed

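Total RNA of sorted DP thymocytes was made into poly(A)-enriched, strand-specific libraries, 3 per genotype. The authors trimmed paired-end reads, aligned them to mm10 (Tophat) and deposited 1 FPKM value per gene symbol and library from Cufflinks. Tool versions, annotation and strand setting are not given in the sources used here. The authors tested gene counts with DESeq2. The deposited FPKM values are not counts, so limma was used. The members and lists were chosen with earlier results of these data known.

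Libraries were scaled by median-of-ratios size factors (1.00 to 1.02). Genes that reached an FPKM of 1 in 3 or more of the 6 libraries were fitted as log2(FPKM + 1) by genotype with limma 3.58.1 (lmFit, eBayes with a trend) in R 4.3.3, with Benjamini-Hochberg adjustment over 10326 genes and a threshold of 0.05. The fit was tested on simulated data. Depth was estimated with an assumed fragment length of 200 at single-transcript genes longer than 1000 nucleotides. Of 23183 symbols, 22148 were in GENCODE M21 (GRCm38, the assembly of mm10), 666 were matched through RefSeq synonyms and 369 had no match. Intervals of fragment ratios are exact binomial and cover counting error only. Promoter windows were from RefSeq (GRCm38.p6). Named genes were all members, all genes of the eIF2 list, *Hspa5*, all paralogs, the 3 called genes at either end of every other list and the 3 genes most like *Atf4* and *Ddit3*. Alternatives changed the pseudocount (0.1), filter, scaling, replicate block, variance trend, WT libraries as 1 sample, GC content and length (natural splines, 5 degrees of freedom each), and left out each library. Python 3.11.15, pandas 2.3.3 and scipy 1.17.1 were also used.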

Additional observations from a re-analysis of the deposited data

How the results depend on the processing

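Replicate numbers did not pair the libraries (same-number correlations of deviations -0.022, 0.038 and 0.031, and not every library correlated best with its own number), and the replicate block gave 1 member called in place of 2, with 0 higher. The number of members called was 4 (3 lower) without a filter, where 3625 of all 16452 genes were called lower, 7 (7 lower, 0 higher) with the same FPKM total, where 6181 of all 10326 were, 1 (0 higher) without the variance trend or after correcting for GC content and length, 0 (0 higher, 0 lower) with the WT libraries as 1 sample, and 1 to 4 with 1 library left out, with 0 to 2 called higher and 1 to 2 lower. Under quantile normalization 2 were called lower. Over all genes, 3475 were called higher and 3041 lower of 10326 under quantile normalization. After correcting for GC content and length these counts were 3078 and 2791 of 10267. They were 3513 and 2954 of 10326 with the replicate block, and 3679 and 3073 without the variance trend. With 1 library left out, 3071 to 4111 were called higher and 2324 to 3526 lower, of 10100 to 10267 tested. The members whose groups were apart numbered 5 of 9 without a filter and 7 of 7 with the same FPKM total, against 3 of 7. Over all 16452 genes without a filter, cKO lay wholly above WT for 4266 and wholly below for 4605. With the same FPKM total these counts were 1160 and 6555 of 10326. With the WT libraries as 1 sample, 1645 genes were called in all, 12 of them on the pathway lists (9 higher, 3 lower). Pathway genes called lower were 59 with the same FPKM total (11 higher), 17 after the correction and 18 to 34 with 1 library left out. Fold changes changed sign for *Atf5* (0.046 after the correction), *Atf6* (-0.343 with the same FPKM total), *Ddit3* (-0.049 under quantile normalization, -0.467 with the same FPKM total, -0.648 after the correction), *Xbp1* (-0.001 under quantile normalization, -0.312 with the same FPKM total) and *Herpud1* (-0.357 with the same FPKM total). The same FPKM total moved the median of all tested genes from 0.039 to -0.454, which by construction lowers every cKO value; the cause of the other changes was not tested. FPKM files limit *Asns*, *Trib3* and *Chac1*, which rest on few fragments.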

Other observations

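Over the reported processing and its 15 alternatives, 8 of the 107 tested pathway genes were called higher in every setting and 3 lower, a selection made after the values were seen. The share of all tested genes called in every setting was not computed, so these counts are a description of the named genes only. The higher genes were *Eif2s1*, *Eif2b3*, *Psat1*, *Mthfd2*, *Ppib*, *Sil1*, *Fkbp2* and *Manf*, the last encoding a secreted ER stress protein with a log2 fold change between 0.30 and 0.94. The lower genes were *Eif2ak3*, between -1.50 and -0.83, *Syvn1*, between -1.47 and -0.46, and *Trib2*, between -1.46 and -0.84. *Sesn2* lay between -0.95 and -0.078.

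The cKO 2 library was nearest to the WT mean of the 3 cKO libraries for 60 of the 107 pathway genes (56.1%) and for 3 of the 7 tested members, beside 51.7% of all tested genes. Without it, the calls on the pathway lists were 52 higher and 34 lower, compared with 47 and 28. Of all 10252 genes tested without cKO 2, 4111 were called higher and 3526 lower.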
